A study of Mus musculus with 22 samples.

Results

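B2m, H2-D1, H2-K1, H2-T23, Psmb8, Psmb9 and Tapbp, genes of class I antigen presentation and the immunoproteasome, were followed through single hippocampal cells of tau transgenic mice. They were chosen by name, with earlier results of these data known. All 7 were found among the 13685 genes of the count table. Drop-seq, which catches single cells in droplets with barcoded beads and reads the 3′ end of their transcripts, had been run on the hippocampus of 22 mice that share the strain label Fvb/B6. The rTg4510 line expresses human tau with the P301L mutation from a tetracycline operator, driven by a transactivator under the Camk2a promoter, which is active in forebrain excitatory neurons. The names P301L and rTta point to animals with only the tau responder and only the transactivator, which the labels do not spell out, and WT animals lack both transgenes. The groups were 5 old wild-type (WT) animals of 32 to 40 weeks, 4 old rTg4510 animals of 32 to 38 weeks, 3 old P301L animals of 41 to 48 weeks and 3 old rTta animals of 33 weeks. The young groups were 4 WT animals of 5 to 6 weeks and 3 rTg4510 animals of 4 to 5 weeks, by the labels of the single animals. The series text gives a lower age range for the young animals.

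Class I molecules of the major histocompatibility complex show peptides from inside the cell to CD8 T cells. H2-D1 and H2-K1 encode classical heavy chains, H2-T23 encodes the non-classical chain Qa-1, and B2m encodes the light chain that all of them need to reach the cell surface. Tapbp encodes tapasin, which holds empty class I molecules beside the peptide transporter made by Tap1 and Tap2. Psmb8 and Psmb9 encode catalytic subunits of the immunoproteasome, which in cells exposed to interferon replace the constitutive subunits encoded by Psmb5 and Psmb6. In healthy brain, class I genes are known to be low in neurons and higher in vessels and microglia.

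B2m lies on chromosome 2 (chr2:122147687-122153082 on GRCm38) and the other 6 genes lie on chromosome 17, in the major histocompatibility complex. H2-K1 (chr17:33996012-34000619) and Tapbp (chr17:33919478-33929290) stand at its one end, Psmb9 (chr17:34182030-34187330) and Psmb8 (chr17:34198195-34201454) next to Tap1 and Tap2, and H2-D1 (chr17:35263094-35267497) and H2-T23 (chr17:36029977-36032701) farther along. RefSeq promoter windows on GRCm38.p6, from 250 bases before to 50 bases after each start, were found for 7 of 7 members. Those of the 3 genes that rose most in microglia, and that of Psmb8 for comparison, are shown 5′ to 3′ on the strand of the gene (B2m chr2:122147437-122147736, H2-D1 chr17:35262844-35263143, H2-K1 chr17:34000298-34000597, Psmb8 chr17:34197945-34198244). Capitals mark GAAANNGAA, a form of the core of an interferon stimulated response element, and the pair of TGACG and ATTGG that starts 25 bases apart.
B2m: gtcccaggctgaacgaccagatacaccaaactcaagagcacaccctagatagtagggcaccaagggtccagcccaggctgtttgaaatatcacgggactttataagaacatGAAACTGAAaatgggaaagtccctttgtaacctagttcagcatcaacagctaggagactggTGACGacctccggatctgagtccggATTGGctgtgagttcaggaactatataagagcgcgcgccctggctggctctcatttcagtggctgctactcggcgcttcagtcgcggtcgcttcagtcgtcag
H2-D1: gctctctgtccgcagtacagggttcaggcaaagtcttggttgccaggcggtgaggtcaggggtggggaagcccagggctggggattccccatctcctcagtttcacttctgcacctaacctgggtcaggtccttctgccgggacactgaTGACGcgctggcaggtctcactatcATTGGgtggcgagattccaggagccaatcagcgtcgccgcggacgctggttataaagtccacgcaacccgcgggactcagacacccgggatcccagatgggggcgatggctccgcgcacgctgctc
H2-K1: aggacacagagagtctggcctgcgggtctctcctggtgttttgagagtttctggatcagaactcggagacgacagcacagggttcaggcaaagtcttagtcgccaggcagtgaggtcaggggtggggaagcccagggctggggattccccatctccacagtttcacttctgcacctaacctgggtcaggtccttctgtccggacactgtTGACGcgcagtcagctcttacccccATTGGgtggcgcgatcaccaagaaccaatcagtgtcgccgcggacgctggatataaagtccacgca
Psmb8: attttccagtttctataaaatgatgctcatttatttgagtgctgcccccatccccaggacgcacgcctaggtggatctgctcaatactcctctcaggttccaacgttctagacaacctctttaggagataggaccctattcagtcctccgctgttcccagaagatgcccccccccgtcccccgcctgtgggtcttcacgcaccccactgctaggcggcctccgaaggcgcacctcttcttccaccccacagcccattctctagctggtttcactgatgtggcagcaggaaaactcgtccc
TGACG followed 25 bases on by ATTGG, which is CCAAT on the other strand, was present in the windows of B2m, H2-D1 and H2-K1 and in no window of the other 4 members. These letters are those of an X2 box and a Y box, elements known from class I and class II promoters. The pair was searched on both strands, and its distance was noticed after the sequences had been seen. It was present in 31 of 32851 mouse promoter windows (0.0944%), H2-M3, another class I gene, among them. Alone, TGACG was present in 20.8% of windows and CCAAT in 37.4%. GAAANNGAA, searched on both strands, was present in the windows of B2m and H2-T23 and in 8.56% of all windows. Other forms of this element were not searched, so a window without GAAANNGAA may still hold one. TTCNNNGAA, the letters of a gamma-activated site, was present in the window of Psmb8 alone among the members and in 8.3% of all windows. The matches describe the letters of these windows alone.

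The table held whole-number counts in 30500 barcodes, of which 27198 with at least 300 counts were kept. Total counts ran from 780831 to 6039656 per animal, and the median count of kept barcodes from 638 to 2021. The cells were clustered and the clusters named from fixed markers, which gave 2772 microglia, 3894 astrocytes, 3808 oligodendrocytes, 1555 oligodendrocyte precursors, 2003 endothelial cells, 755 mural cells, 8114 excitatory neurons, 1241 interneurons and 606 other neurons. Each old WT animal gave 24 to 172 microglia and each old rTg4510 animal 93 to 370; old WT animals 2 and 3 gave 25 and 24. The single-transgene lines appear to form a table of their own, since 270 genes had no count in any of their animals but counts in every other animal, and 801 genes had the reverse. A difference between these lines and WT or rTg4510 animals cannot be told apart from a difference between those tables. In all, 219 barcode sequences occurred in more than 1 animal, and 397 kept cells carried a sequence found in a kept cell of another animal. The comparisons share animals, so old rTg4510 enters several of them.

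In microglia, the edgeR fit put B2m, H2-D1 and H2-K1 about 3.5 to 5 times as high in old rTg4510 as in old WT animals. Psmb8 was about 2.3 times as high. The fit rescales the libraries, so these differences are larger than those between the mean CPM of the groups. H2-T23, Psmb9 and Tapbp did not pass the test. Levels are given in CPM, the counts of a gene summed over the microglia of an animal and divided by the sum of all their counts, per 1000000. B2m stood at 1606, 2639, 2212, 2113 and 2443 CPM in the 5 old WT animals. In the 4 old rTg4510 animals it stood at 7614, 9107, 4832.5 and 4173 CPM. The groups did not overlap, and rTg4510 animals 1 and 2 were the highest. B2m was higher by 1.80 ± 0.27 on the log2 scale (SE; adjusted p = 1.1e-05, edgeR quasi-likelihood test with Benjamini-Hochberg adjustment over 4838 genes).

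H2-D1, 1 of the 2 classical heavy chain genes, stood at 867, 763, 510.5, 825 and 879 CPM in old WT microglia. It stood at 4522, 5028, 2066 and 1619 CPM in old rTg4510 microglia. The lowest rTg4510 animal was again above the highest WT animal, and the log2 difference was 2.32 ± 0.33 (adjusted p = 7e-06). H2-K1, the other classical heavy chain gene, stood at 692, 668, 652, 455 and 372 CPM in old WT and at 2074, 2493, 1225 and 1112 CPM in old rTg4510 microglia. The groups did not overlap, and the log2 difference was 1.86 ± 0.28 (adjusted p = 1.1e-05). Psmb8 stood at 123, 95.4, 170, 109.5 and 179 CPM in old WT and at 273, 326, 158 and 297 CPM in old rTg4510 microglia. Here rTg4510 animal 3 lay below the highest WT animals, so the groups overlapped, although the gene was called (log2 difference 1.22 ± 0.29, adjusted p = 0.006).

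The other 3 members overlapped between the groups. Psmb9, the partner of Psmb8, ran from 0 to 134 CPM in old WT and from 42.7 to 130.6 CPM in old rTg4510 microglia (log2 difference 0.68 ± 0.40, adjusted p = 0.46). Tapbp ran from 0 to 182 CPM and from 60.9 to 198 CPM (0.59 ± 0.44, adjusted p = 0.59). H2-T23 ran from 0 to 89.4 CPM and from 12.2 to 93.6 CPM (0.28 ± 0.58, adjusted p = 0.88). Their standard errors leave room for a change as large as that of Psmb8. In all, 4 of 7 members were called higher and 0 lower, where 2.91% of the 4838 genes tested in microglia were called higher. The median log2 difference of the members was 1.22, against -0.02 over all genes tested. Both are descriptions, since the members were chosen with earlier results of these data known.

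**Figure D1:**
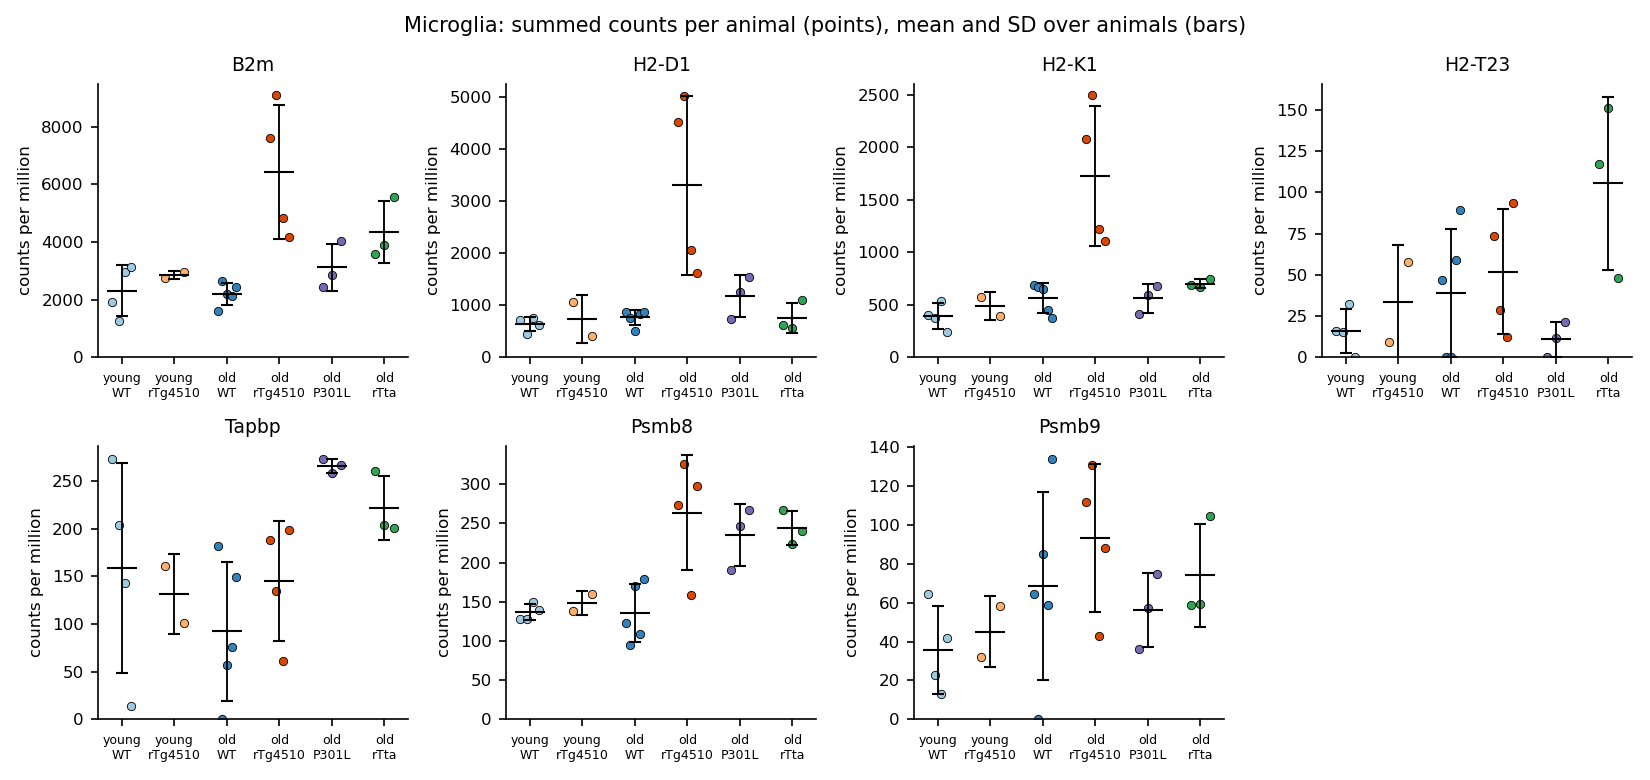
CPM of the 7 members in microglia for each animal with at least 20 microglia (points, by group), with the mean and SD over animals (bars). For B2m, H2-D1 and H2-K1 all 4 old rTg4510 animals lie above all 5 old WT animals, while Psmb8, Psmb9, Tapbp and H2-T23 overlap.

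Microglia markers also differed between these groups: 5 of 10 were called, and their summed level ran from 22250 to 37090 CPM in old WT and from 26620 to 49850 CPM in old rTg4510 microglia. Markers of oligodendrocytes summed to between 2160 and 6137 CPM in WT and between 1429 and 3297 CPM in rTg4510 microglia, and those of excitatory neurons to between 1340 and 2226 CPM and between 647 and 1389 CPM. Of 5 markers of border macrophages 1 was measured, at 0 to 63.6 CPM in WT and 0 to 54.6 CPM in rTg4510, and 0 of 7 markers of T and NK cells were measured. Without the microglia that carried any count of a marker of endothelial cells, border macrophages or T and NK cells, B2m, H2-D1, H2-K1 and Psmb8 were again called (log2 differences 1.75, 2.34, 1.80 and 1.11). The part of the other markers in the result was not tested. Leaving out such cells may miss border macrophages and T and NK cells, of whose markers few or none were measured. Scaling by library size alone moved the median of all genes in microglia by -0.20, and the members were then higher by 1.56, 2.09, 1.63 and 1.01 (adjusted p = 9.8e-05, 3.4e-05, 9.8e-05 and 0.032 for B2m, H2-D1, H2-K1 and Psmb8).

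The microglia formed 2 clusters. Cluster 13 (1457 cells) was led by P2ry12, a gene of resting microglia, and cluster 15 (1315 cells) by Ccl4, Ccl3 and Il1b. Cluster 15 made up 53.7% ± 8.11 (SD, n = 5) of microglia in old WT and 50.7% ± 8.32 (n = 4) in old rTg4510 animals. B2m, H2-D1 and H2-K1 were higher in both clusters: by 1.93, 2.93 and 2.69 on the log2 scale in cluster 13 (adjusted p = 0.0011, 6.9e-05 and 6.8e-05), and by 1.71, 1.78 and 1.60 in cluster 15 (0.0011, 0.00052 and 0.00054). In cluster 13, 3 of the old WT animals had enough cells to be used. Psmb8 was not called in either cluster alone (1.38, adjusted p = 0.19, and 1.11, adjusted p = 0.058).

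The share of microglia with a count of these genes also rose. With each cell thinned to 500 counts, which left 362 of 384 old WT and 850 of 889 old rTg4510 microglia, B2m had a count in 64.3% ± 9.36 (SD, n = 5) of old WT and 88.9% ± 8.91 (n = 4) of old rTg4510 microglia. H2-D1 went from 22.9% ± 6.74 to 64.7% ± 19.7, and H2-K1 from 23.2% ± 7.14 to 45.9% ± 11.9. Psmb8 had a count in 7.41% ± 2.198 and 12.5% ± 3.95 (exact permutation p = 0.056, adjusted p = 0.19). For B2m, H2-D1 and H2-K1 the groups did not overlap (exact two-sided permutation p = 0.0079, the smallest that 4 against 5 animals allow; adjusted p = 0.04 over 35 tests). With cells thinned to 300 counts the adjusted p was 0.056 for each, and with unthinned cells, where B2m had a count in 96.3%, H2-D1 in 82.8% and H2-K1 in 70.8% of old rTg4510 microglia, it was 0.083, 0.056 and 0.056. Excitatory neurons, in which class I genes are low, had a B2m count in 6.60% of old WT and 7.85% of old rTg4510 cells at 500 counts, and H2-K1 in 0.837% and 2.00% (at 300 counts its share differed by -0.03 percentage points). Median depths of microglia and excitatory neurons were 996.5 and 1010 counts in old WT and 1434 and 1577.5 in old rTg4510. At the same depth, counts of B2m, H2-D1 and H2-K1 together in a single microglial cell were seen in 5.41% ± 1.88 of old WT and 33.2% ± 16.1 of old rTg4510 microglia. The single rTg4510 animals had 42.2%, 51.1%, 22.6% and 17.1%, and no WT animal had more than 8%. In P301L, rTta and young WT animals the means were 8.36%, 6.98% and 4.57%, and the 2 young rTg4510 animals with enough cells had 10.3% and 2.22%.

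The titles number the animals in separate ranges, whose meaning the labels do not give. Among the animals numbered 567 to 600, B2m, H2-D1, H2-K1 and Psmb8 in microglia were higher in 2 rTg4510 than in 3 WT animals by 1.98, 2.76, 1.75 and 1.18 on the log2(CPM + 10) scale. Among those numbered 781 to 810, with 2 animals a group, the differences were 0.98, 1.09, 1.48 and 0.60. For B2m, H2-D1 and H2-K1 every rTg4510 animal was above every WT animal in both ranges. The ranges were not compared with a test.

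The partners of these genes in microglia were less uniform. Of 10 genes listed for assembly and loading of class I, 6 could be tested and none was called. Tap2 differed by 0.46 ± 0.52 on the log2 scale of the fit (adjusted p = 0.76). Its mean CPM did not differ (39.8 ± 22.6, SD, n = 5, in WT and 39.8 ± 15.8, n = 4, in rTg4510). Tap1 was too low to test (17.0 and 25.1 CPM). None of 3 tested genes of the immunoproteasome and its activator was called: Psme1 and Psme2, the subunits of the PA28 activator, differed by 0.75 ± 0.32 and 0.95 ± 0.41 (adjusted p = 0.24 and 0.25), and Psmb10, the remaining inducible catalytic subunit, by 0.42 ± 0.31 (adjusted p = 0.58). Of the constitutive catalytic subunits, Psmb5, which Psmb8 replaces, differed by -1.06 ± 0.44 (adjusted p = 0.21), Psmb6, which Psmb9 replaces, by 0.38 ± 0.31 and Psmb7 by -0.37 ± 0.61; 0 of 3 were called. None of 10 tested core proteasome genes was called.

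Other antigen presentation and interferon genes were called higher in old rTg4510 microglia. Of 2 tested further class I genes 1 was called, H2-M3, which presents formylated peptides, at 15.8 ± 15.4 CPM (SD, n = 5) in WT and 63.9 ± 46.4 (n = 4) in rTg4510 (log2 difference 2.44, adjusted p = 0.025). H2-M3 stood at 17.6, 31.8, 0, 0 and 29.8 CPM in the WT and at 81.9, 121, 30.5 and 22.02 CPM in the rTg4510 animals, and the groups overlapped. The 3 class II genes that passed the filter on low counts were called: Cd74, the invariant chain, by 4.16 (adjusted p = 0.027), H2-Ab1 by 3.85 (0.044) and H2-DMa, which edits peptides, by 3.71 (0.00045). Over all genes tested, 2.91% were called higher. The filter passes a gene through the group where it is high, so the counts and medians of these lists are descriptions. Of 15 tested interferon genes 3 were called, among them Ifnar2, a receptor chain, by 1.29 (0.0027), and Lgals3bp, an interferon-induced secreted protein, by 2.61 (9.2e-05). The medians of the lists were 3.85 for class II, 0.56 for interferon genes and 0.28 for assembly, against -0.02 over all genes. Irf1, a transcription factor that binds class I promoters, differed by -0.02 (adjusted p = 0.99).

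In astrocytes, B2m, H2-D1 and H2-K1 were also higher in old rTg4510 animals, by about 2.5 to 2.8 times in the fit, but from levels several times lower than in microglia. B2m stood at 243, 340, 650, 453 and 308 CPM in the 5 old WT and at 865, 1110, 1090 and 696 CPM in the 4 old rTg4510 animals. H2-K1 stood at 130, 64.7, 53.4, 120.5 and 157 CPM in old WT and at 293, 341, 352 and 159 CPM in old rTg4510 animals. For both genes the groups did not overlap, by a narrow margin. H2-D1 stood at 123, 89.0, 89.0, 277 and 219 CPM in WT and at 531, 520, 439 and 219 CPM in rTg4510, so that the lowest rTg4510 animal lay within the WT range. The log2 differences were 1.35 ± 0.31 for B2m (adjusted p = 0.041), 1.46 ± 0.32 for H2-D1 (0.04) and 1.47 ± 0.25 for H2-K1 (0.0024), 3 of 5 members tested, where 0.348% of 5755 genes were called higher. Psmb8 stood at 10.6, 0, 17.8, 10.95 and 10.4 CPM in WT and at 40.65, 52.0, 50.25 and 53.0 CPM in rTg4510, without overlap, but was not called (2.32 ± 0.62, adjusted p = 0.087). Tapbp differed by 0.23 ± 0.38 (adjusted p = 0.94), and H2-T23 and Psmb9 were too low to test.

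**Figure D2:**
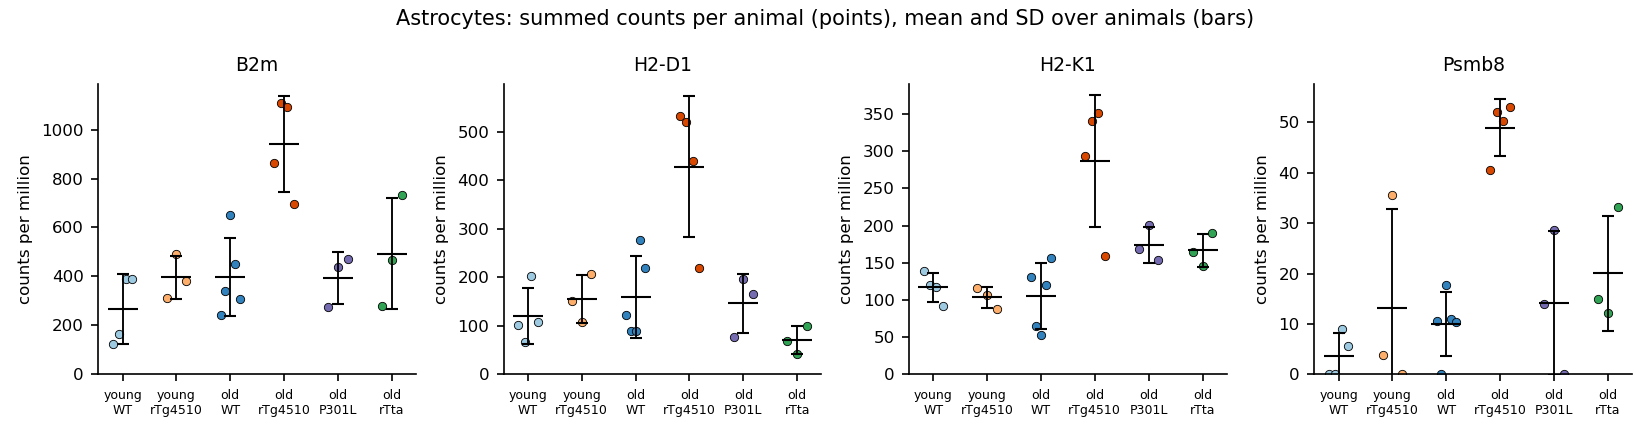
CPM of B2m, H2-D1, H2-K1 and Psmb8 in astrocytes for each animal with at least 20 astrocytes (points, by group), with the mean and SD over animals (bars). The old rTg4510 animals lie above the old WT animals for B2m, H2-K1 and Psmb8, while for H2-D1 the lowest of them lies at 219 CPM, within the WT range.

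Only H2-K1 kept its call in astrocytes when cells with any count of a marker of microglia or endothelial cells were left out (1.46, adjusted p = 0.03; B2m 1.04, 0.17; H2-D1 1.28, 0.21) and when library size alone set the scale (adjusted p = 0.0072; B2m 0.098; H2-D1 0.088). Without old WT animals 2 and 3 the adjusted p of B2m, H2-D1 and H2-K1 was 0.055, 0.25 and 0.049. B2m lost its call without WT animal 1, 2, 4 or 5 or rTg4510 animal 1, 2 or 3, and H2-D1 without WT animal 1, 2, 3 or 5 or rTg4510 animal 1, 2 or 3, whereas H2-K1 was called without any single animal. All 10 markers of microglia were detected in astrocytes and summed to between 664 and 1344 CPM in old WT and between 589.5 and 2279 CPM in old rTg4510 animals, and their part in the class I levels was not tested. Of the other genes listed, Ifitm3, an interferon-induced membrane protein, was called at 45.6 ± 23.8 CPM (SD, n = 5) and 191 ± 34.7 (n = 4; log2 difference 2.13, adjusted p = 0.012). No other listed gene was called in astrocytes. At 500 counts a cell, H2-D1 had a count in 6.97% ± 2.01 of old WT and 15.5% ± 4.09 of old rTg4510 astrocytes (exact permutation p = 0.0079, adjusted p = 0.04). The adjusted p was 0.19 at 300 counts and 0.056 with unthinned cells, where the shares were 14.8% and 36.9%.

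In oligodendrocytes the differences between old rTg4510 and WT were as large but varied more between animals. H2-D1 stood at 65.35, 20.1, 71.3, 182 and 52.2 CPM in the 5 old WT animals and at 621, 795, 207 and 123 CPM in the 4 old rTg4510 animals, with overlap. It differed by 2.46 ± 0.59 on the log2 scale (adjusted p = 0.17), B2m by 1.89 ± 0.64 (0.47) and H2-K1 by 1.58 ± 0.50 (0.35). So 0 of 3 tested members were called with edgeR, although all 3 had an unadjusted p under 0.05 and DESeq2 called H2-D1 (adjusted p = 0.034). Of 5565 genes, 0.144% were called higher with edgeR and 357 had an unadjusted p under 0.05. The shares of oligodendrocytes with a count, thinned to 500, rose from 4.59% ± 1.44 to 13.8% ± 5.82 for B2m and from 3.61% ± 1.63 to 14.1% ± 7.30 for H2-D1 (exact permutation p = 0.0079, adjusted p = 0.04 for both). At 300 counts the adjusted p was 0.17 and 0.093, and with unthinned cells, where the shares of old rTg4510 were 31.4% and 27.8%, it was 0.069 for both. Markers of microglia summed to between 105 and 344 CPM in WT and between 236 and 495 CPM in rTg4510 oligodendrocytes.

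Endothelial cells had the highest mean levels of B2m, H2-D1 and H2-K1 among the tested classes of old WT hippocampus and showed no difference that passed the test. B2m stood at 2162, 1886, 4778, 7988 and 4815 CPM in the 5 old WT and at 7003, 3498, 4867 and 1310 CPM in the 4 old rTg4510 animals. H2-D1 stood at 2640, 915, 2540, 10602 and 5323 CPM and at 7360, 2656, 4508 and 1310 CPM. Both groups spread widely and overlapped. The log2 differences of the 7 members ran from -0.39 for Psmb8 to 0.08 for H2-K1, and 0 of 7 were called with edgeR, 0 at an unadjusted p under 0.05 and 0 with DESeq2, as 0% of the 3923 genes tested were called. B2m differed by -0.07 ± 0.40 and H2-D1 by -0.20 ± 0.52. Markers of microglia summed to between 90.7 and 1054 CPM in WT and between 588 and 1517 CPM in rTg4510 endothelial cells.

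The remaining classes had no called member between old rTg4510 and WT with edgeR. In mural cells B2m stood at 343, 271 and 434 CPM in 3 WT and 1096, 732 and 623 CPM in 3 rTg4510 animals, without overlap (log2 difference 1.22 ± 0.38, adjusted p = 0.25). All 3 tested members had an unadjusted p under 0.05 there, as did 155 of 1508 genes. In oligodendrocyte precursors 1 of 2 and in interneurons 1 of 3 tested members did, B2m in both. Among all genes tested, 235 of 3538 in precursors and 351 of 6769 in interneurons did. In excitatory neurons, which make the transgenic tau, B2m, H2-D1 and H2-K1 differed by 0.43 ± 0.33, 0.57 ± 0.37 and 0.65 ± 0.34 (adjusted p = 0.78, 0.73 and 0.59); 0 of 4 members were called, 0 at an unadjusted p under 0.05 and 0 with DESeq2, where 0.25% of 9581 genes were. The B2m level there was 122 ± 44.4 CPM (SD, n = 5) in WT and 161 ± 25.7 (n = 4) in rTg4510.

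**Figure D3:**
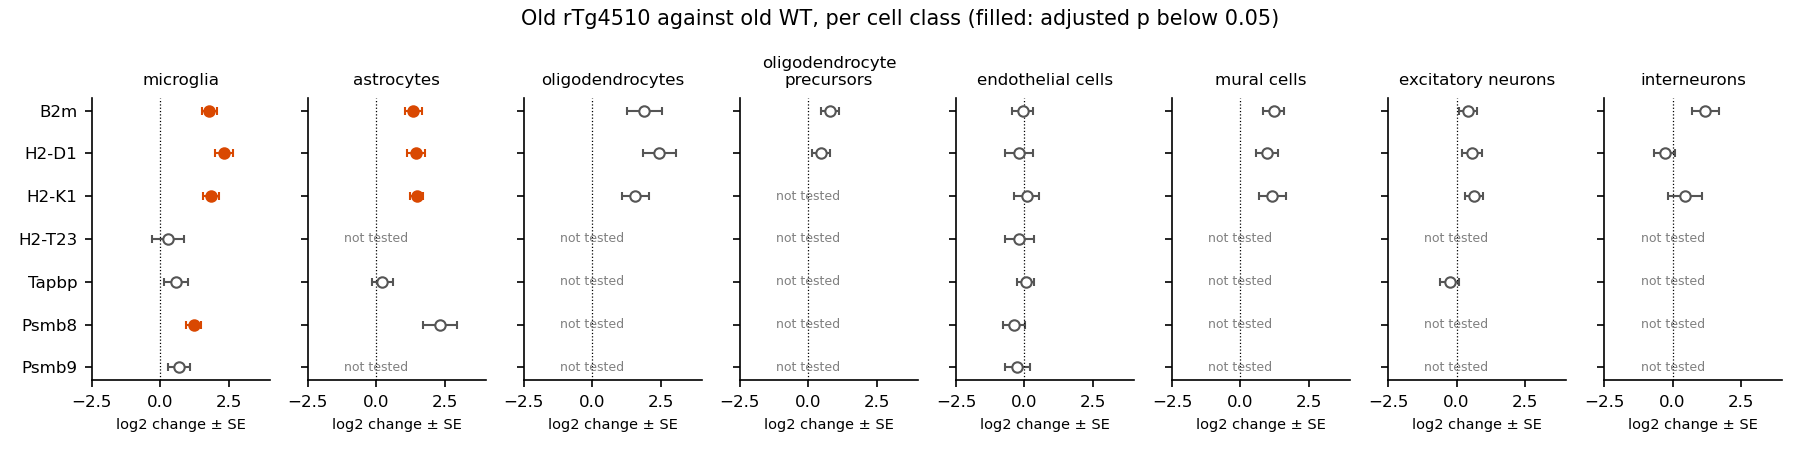
Log2 difference between old rTg4510 and old WT animals for each member tested in each cell class (points, with the standard error as bars); filled points have an adjusted p below 0.05. The filled points are B2m, H2-D1, H2-K1 and Psmb8 in microglia and B2m, H2-D1 and H2-K1 in astrocytes, and the endothelial points lie near 0.

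Whether the effect differed between classes was tested per animal, as the difference in log2(CPM + 10) between microglia and another class. For H2-D1 the gap between microglia and excitatory neurons was 4.61 ± 0.55 (SD, n = 4) in rTg4510 and 3.39 ± 0.72 (n = 5) in WT, a difference of 1.22 (exact two-sided permutation p = 0.0079, adjusted p = 0.1). For B2m against endothelial cells the difference of the gaps was 1.58 (exact permutation p = 0.048, adjusted p = 0.18). For Psmb8 against astrocytes the gap was smaller in rTg4510, 2.17 ± 0.47 against 2.901 ± 0.38, a difference of -0.73 (exact permutation p = 0.016, adjusted p = 0.1). Psmb8 had 10 counts in all in old WT astrocytes. Its mean there, 9.95 CPM, was near the 10 CPM added before the log. None of 19 gene and class pairs passed the adjustment, with 0.0079 the smallest p the design allows. The differences for B2m, H2-D1 and H2-K1 between microglia and astrocytes, 0.21, 0.52 and 0.15, were smaller than the SD of these gaps among WT animals.

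Over all cells of an animal summed, 0 of 7 members were called between old rTg4510 and WT with edgeR (2 at an unadjusted p under 0.05, 0 with DESeq2), where 0.185% of 12414 genes were. An unadjusted p under 0.05 was found for 1052 of these genes. B2m differed there by 1.37 ± 0.44 (adjusted p = 0.3). In such sums more cells of a type and more RNA per cell cannot be told apart. Microglia gave 21.96% ± 9.79 (SD, n = 5) of all B2m counts in old WT and 53.2% ± 26.8 (n = 4) in old rTg4510 animals, while they were 7.19% and 16.1% of the kept cells. Endothelial cells gave 44.3% ± 16.3 and 12.8% ± 5.18, and were 6.52% and 5.79% of the cells. For H2-D1 the microglial share was 12.4% ± 8.22 and 43.9% ± 24.2, and for H2-K1 23% ± 15.3 and 49.97% ± 30.3. Old rTg4510 animal 3 stood apart in these sums: 545 of its kept cells, 34.1%, fell in an unnamed cluster led by Igfbp2, Prlr, Kl and Enpp2, which gave 50.7% of its B2m, 45.3% of its H2-D1 and 69.8% of its H2-K1 counts. The cluster held at most 5.08% of the cells of any other old animal. Without it, a choice made after seeing the data, B2m differed by 1.35 ± 0.43 (adjusted p = 0.22) over all cells and 0 of 7 members were called. The microglial share of B2m counts was then 22.2% ± 9.48 in old WT and 56.9% ± 19.8 in old rTg4510, and the endothelial share 45.7% ± 18.5 and 17.1% ± 12.0.

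The order given here is among the 9 tested classes. Fibroblasts, with at least 20 cells in 1 old WT and 1 old rTg4510 animal, were left out (B2m at 1284 and 1584 CPM). In old WT animals B2m was highest in endothelial cells (4326 ± 2475 CPM) and next in microglia (2203 ± 391), which did not differ by more than the larger SD. Microglia stood above the next class, astrocytes (399 ± 160), by more than that. Oligodendrocytes (100.3 ± 28.1), interneurons (56.9 ± 25.5) and other neurons (53.2 ± 54.3, n = 2) were the lowest. In old rTg4510 animals microglia came first (6432 ± 2325) and endothelial cells second (4169 ± 2390), again within the larger SD. H2-D1 had endothelial cells first in both groups (4404 ± 3809 and 3959 ± 2620 CPM) and microglia second (769 ± 151 and 3309 ± 1716). In WT, H2-D1 in microglia was not separated from mural cells (643 ± 142) by more than the larger SD, and in rTg4510 it was (1273 ± 272). Below them, precursors stood at 447 ± 252 CPM of H2-D1 in WT, and astrocytes (159.6 ± 84.7), interneurons (153.5 ± 76.7), oligodendrocytes (78.2 ± 61.4) and excitatory neurons (75.7 ± 61.3) did not stand apart from their neighbours. In rTg4510 oligodendrocytes (436 ± 323) and astrocytes (427 ± 145) stood near precursors (613 ± 237), and excitatory neurons were the lowest (116 ± 36.0). H2-K1 went from endothelial cells first in WT (1352 ± 852, microglia 567.7 ± 144) to microglia first in rTg4510 (1726 ± 668, endothelial cells 1472 ± 928). Psmb8, Psmb9 and Tapbp were highest in endothelial cells and second in microglia in both groups. H2-T23 was highest in mural cells in WT (122 ± 86.4 CPM) and in endothelial cells in rTg4510 (114 ± 99.2), with microglia in the third place. The mural mean in WT rested on 12 counts in 3 animals. Fibroblasts of the 1 old WT animal stood at 131 CPM for H2-T23 and at 84.4 CPM for Psmb9. Since the classes are clusters of the same counts, this order is a description.

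**Figure D4:**
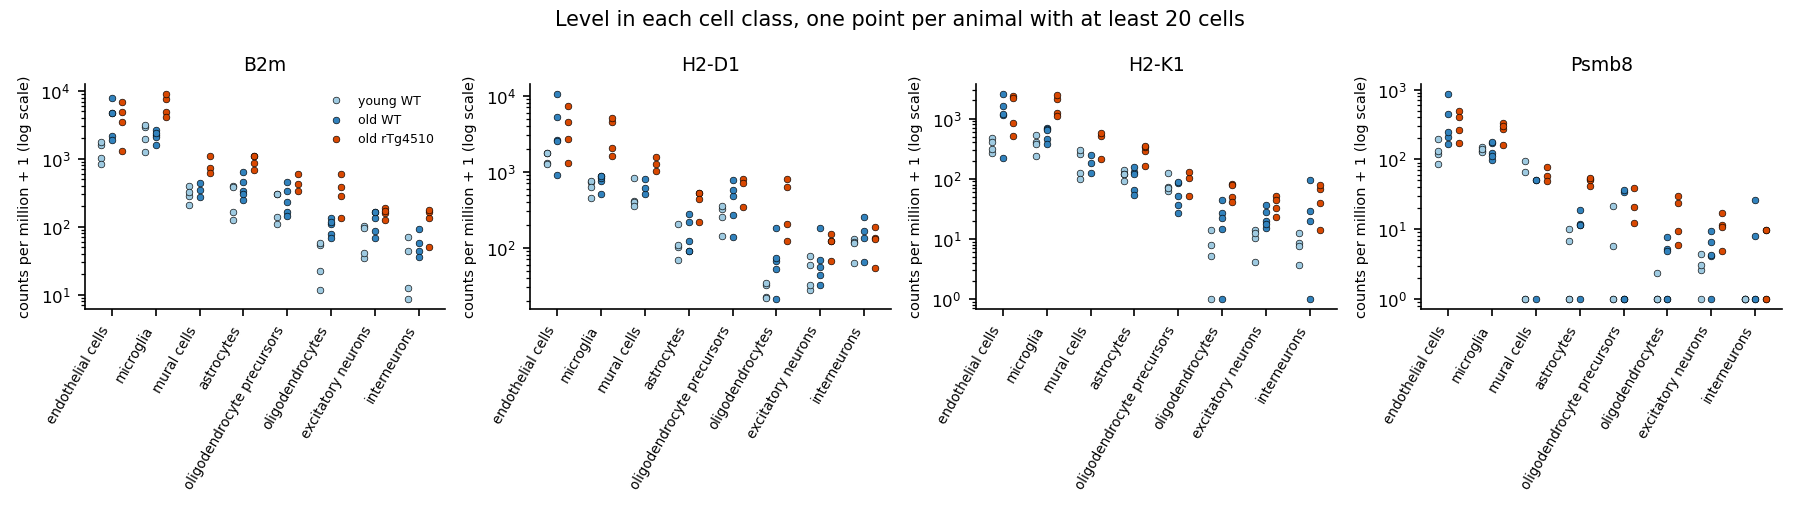
CPM plus 1 (log scale) of B2m, H2-D1, H2-K1 and Psmb8 in each cell class of old WT and old rTg4510 animals, 1 point per animal with at least 20 cells of the class. Endothelial cells and microglia have the highest means for each gene, though the H2-D1 points of WT microglia lie near those of mural cells, and the microglial points of B2m, H2-D1 and H2-K1 separate the groups.

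Over 53 points, each a class in a group, the log2 levels of B2m went most closely with those of H2-K1 (Pearson r = 0.961) and Psmb8 (0.958). The points share animals and depth, and r is given as a description. Among genes that are not members, the most alike were Nfkbia (0.925), Pros1 (0.914), Lgals9 (0.906), Il10rb (0.904) and Clic1 (0.896), out of 8485 genes compared. For H2-D1 they were Ier2, Ifnar2, Klf4, Irf1 and Pros1, with r between 0.886 and 0.873, and H2-K1 was the closest member (0.918). For Psmb8 they were Anxa3 (0.950), Grap (0.943), Lgals9 (0.936), Elk3 (0.932) and Nfkbia (0.929), with B2m the closest member (0.958) and Psmb9 at 0.941. H2-T23 was least like B2m among the members, with r = 0.779.

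At the young age no member was called between rTg4510 and WT microglia. B2m stood at 1930, 1248, 2961 and 3137 CPM in 4 young WT and at 2753 and 2961 CPM in the 2 young rTg4510 animals with enough microglia (log2 difference 0.25 ± 0.34, adjusted p = 0.88). H2-D1 stood at 724, 446, 748 and 630.2 CPM in young WT and at 1057 and 406 CPM in young rTg4510 microglia, and differed by 0.21 ± 0.42. H2-K1 stood at 402, 378, 540.1 and 238 CPM and at 579 and 392 CPM, and differed by 0.27 ± 0.37. The groups overlapped for all 3 genes. Psmb8, which stood at 129, 129, 149.7 and 140.1 CPM and at 138 and 159.7 CPM, differed by 0.04 ± 0.39. With edgeR 0 of 7 members were called, 0 at an unadjusted p under 0.05 and 0 with DESeq2, where 0.0207% of genes were. The effect at the old age exceeded that at the young age by 2.11 ± 0.55 for H2-D1, 1.55 ± 0.45 for B2m, 1.58 ± 0.48 for H2-K1 and 1.18 ± 0.49 for Psmb8 on the log2 scale. Their unadjusted p values were 0.00043, 0.0012, 0.0017 and 0.02, but the adjusted p values were 0.19, 0.23, 0.24 and 0.44, so that 0 of 7 members were called (0 with DESeq2), where 0.0207% of genes were.

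Between old and young rTg4510 microglia, H2-D1 was higher by 2.34 ± 0.46 (adjusted p = 0.01) and H2-K1 by 2.01 ± 0.39 (0.0065), 2 of 7 members, where 0.186% of genes were called higher. B2m was higher by 1.38 ± 0.37 without passing (adjusted p = 0.14). H2-D1 stood at 1057 and 406 CPM in the young animals, below every old rTg4510 animal. The calls rested on the shared estimate of the spread: with those groups alone in the fit the adjusted p values were 0.23 and 0.13, and without young rTg4510 animal 2, which leaves 1 young animal, 0.53 and 0.35. Without young animal 1 that of H2-K1 was 0.077. A lone animal was taken to vary like those of the other groups. In astrocytes H2-K1 was called (1.51 ± 0.30, adjusted p = 0.036), 1 of 5 members against 0.0348% of genes. In oligodendrocytes H2-D1 (3.48 ± 0.73, adjusted p = 0.012) and H2-K1 (1.95 ± 0.54, 0.037) were called, 2 of 3 members tested against 1.22% of genes. Oligodendrocyte H2-D1 stood at 67.4, 26.65 and 32.9 CPM in the 3 young rTg4510 animals, below the 123 CPM of the lowest old one. The astrocyte call was lost without old rTg4510 animal 1, 2 or 3 or young animal 2 or 3. In oligodendrocytes the H2-D1 call was lost without young rTg4510 animal 2 or 3, and the H2-K1 call without old animal 1 or 2 or any young animal.

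Between old and young WT animals no member was called in microglia (0 of 7 with edgeR, 1 at an unadjusted p under 0.05, 0 with DESeq2, against 0% of genes). An unadjusted p under 0.05 was found for 411 of 4838 genes there. In endothelial cells 6 of 7 members had a log2 difference between 1.53 and 1.95. B2m stood at 1030, 848, 1607 and 1755 CPM in the 4 young WT animals, below all 5 old WT animals, and was higher with age by 1.75 ± 0.42 (adjusted p = 0.25). H2-K1 stood at 265.5, 305, 476 and 409 CPM in young WT and at 1150, 222, 1210, 2578 and 1602 CPM in old WT animals; old WT animal 2 lay below the young ones, and the log2 difference was 1.95 ± 0.49 (adjusted p = 0.25). Psmb8 differed by 1.74 ± 0.44 (adjusted p = 0.25), and Tapbp by 0.25 ± 0.32 (0.97). The 3 young rTg4510 animals stood between 1432 and 2298 CPM for B2m and between 287 and 640.4 CPM for H2-K1. With edgeR 0 of 7 members were called, as 0% of genes were, while 6 of 7 had an unadjusted p under 0.05 and DESeq2 called B2m and H2-K1 (adjusted p = 0.021 for both). Of the 3923 genes tested there, 215 had an unadjusted p under 0.05.

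The single-transgene lines allow rTg4510 to be set against animals with 1 of its transgenes, but only across the tables, which cannot be told apart from genotype here. The P301L animals, of 41 to 48 weeks, were also older than every other old animal. Age therefore cannot be told apart from genotype in comparisons of P301L with old WT, rTg4510 or rTta animals. In microglia, H2-D1 stood at 737, 1257.5 and 1537 CPM in 3 old P301L and at 618, 565 and 1100 CPM in 3 old rTta animals, and H2-K1 at 409.5, 591 and 683 CPM and at 690, 670 and 747 CPM. All lay below the lowest old rTg4510 animal (1619 CPM for H2-D1, 1112 CPM for H2-K1). Old rTg4510 microglia were higher than P301L microglia by 1.64 ± 0.38 for H2-D1 (adjusted p = 0.0056), 1.76 ± 0.33 for H2-K1 (0.00064) and 1.18 ± 0.31 for B2m (0.014), 3 of 7 members, where 3.53% of genes were called higher. Against rTta the differences were 2.29 ± 0.39 for H2-D1 (0.00016) and 1.46 ± 0.32 for H2-K1 (0.0035), 2 of 7 members against 1.32% of genes, and B2m differed by 0.72 ± 0.31 (adjusted p = 0.24). Against P301L, the B2m call was lost without P301L animal 1 or 2 or rTg4510 animal 2, and the H2-D1 call without P301L animal 1.

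B2m in microglia stood at 3572, 3882.5 and 5580 CPM in rTta animals, above every old WT animal, and was higher by 1.07 ± 0.29 (adjusted p = 0.033), 1 of 7 members, where 0.93% of genes were called higher. That call was lost in 12 of 18 alternatives, among them DESeq2 (adjusted p = 0.052). In P301L animals B2m stood at 2457, 2871 and 4044 CPM (log2 difference from WT 0.62 ± 0.29, adjusted p = 0.19). Psmb8 stood at 191, 247 and 267 CPM in P301L and 267, 223 and 241 CPM in rTta microglia, above every old WT animal, with adjusted p = 0.087 and 0.11. Against WT, 0 of 7 members were called in P301L microglia with edgeR (4 at an unadjusted p under 0.05, 0 with DESeq2), where 5.52% of genes were, a comparison across the tables. Of the 4838 genes tested, 1069 had an unadjusted p under 0.05 there. Between P301L and rTta, which share a table, 0 of 7 members were called (1 at an unadjusted p under 0.05, 0 with DESeq2), where 0.579% of genes were. An unadjusted p under 0.05 was found for 369 of the 4838 genes. Tapbp stood at 273, 258 and 267 CPM in P301L and at 260.2, 204 and 201 CPM in rTta microglia, above every old WT and rTg4510 animal, with adjusted p = 0.097 and 0.26 against WT. These levels are set across the tables. H2-T23 stood at 0, 11.5 and 21.3 CPM in P301L and at 117, 151 and 48.2 CPM in rTta microglia, without overlap (log2 difference -3.22 ± 0.83, adjusted p = 0.057).

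In astrocytes and oligodendrocyte precursors H2-D1 was lower in rTta than in rTg4510 animals. In astrocytes H2-D1 stood at 69.8, 42.5 and 99.4 CPM in the 3 rTta animals and was lower than in rTg4510 by 2.65 ± 0.43 on the log2 scale (adjusted p = 0.00063), the 1 member of 5 called, where 0.521% of genes were called higher in rTg4510. In oligodendrocyte precursors it stood at 131, 141 and 166 CPM in rTta and 789, 705 and 343 CPM in 3 rTg4510 animals (2.10 ± 0.42, adjusted p = 0.0051), 1 of 2 members against 0.141% of genes. Without rTg4510 animal 2, rTta animal 1 or rTta animal 2 that call was lost. In mural cells and excitatory neurons the differences were 2.00 ± 0.42 and 1.98 ± 0.47 without passing (adjusted p = 0.053 and 0.078). In endothelial cells H2-D1 stood at 1505.5, 1333 and 1943 CPM in rTta animals and differed from old WT by -1.56 ± 0.61 (adjusted p = 0.49). The 3 P301L animals stood between 4780 and 7442 CPM there. Against WT, 0 of 7 members were called in rTta endothelial cells with edgeR (2 at an unadjusted p under 0.05, 0 with DESeq2), where 0.204% of genes were. Of the 3923 genes tested there, 310 had an unadjusted p under 0.05.

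The ratio of H2-D1 to H2-K1 counts was taken within each animal and is free of the scaling. A low ratio can come from less H2-D1 or from more H2-K1, which the ratio does not tell apart. Over all cells it was 1.13 to 1.52 in the 3 rTta animals, with a mean of 1.27 ± 0.21 (SD). It was 2.50 to 2.80 in P301L, 1.98 to 3.55 in old WT and 1.04 to 2.51 in old rTg4510 animals. So the rTta animals lay below every P301L and old WT animal but not below every rTg4510 animal. The overlap came from old rTg4510 animal 3 at 1.04, whose unnamed cluster described above had a ratio of 0.67, while the other 3 old rTg4510 animals had 2.51, 2.29 and 1.83. Without that cluster, animal 3 had 1.88, and the rTta animals, at 1.12 to 1.52, lay below every old rTg4510 animal. They then also lay below every young animal, of which the lowest had 1.55. In endothelial cells, with 1.24 to 1.60 in rTta, they lay below all 19 other animals, of which the lowest had 2.07. In astrocytes the ratio was 0.29 to 0.53 in rTta and at least 0.95 in each old WT animal and 1.25 in each old rTg4510 animal. P301L animal 1, at 0.46, lay within the rTta range there, and the lowest young WT animal had 0.56. In microglia the groups overlapped, with 0.84 to 1.47 in rTta, 0.78 to 2.36 in old WT and at least 1.46 in each old rTg4510 animal. Rps18, a ribosomal protein gene between Tapbp and H2-K1 (chr17:33951998-33955665), stood at 203 to 207.5 CPM over all cells in the rTta animals, at 7.31 to 103 CPM in P301L and at no more than 11.1 CPM in the WT and rTg4510 animals. The part of the genotype at this locus, of the mapping of reads and of the separate tables in these values was not tested. In the reference transcripts H2-D1 and H2-K1 share 2 of 451 windows of 50 bases in their last 500 bases (0.443%), where 3′ reads fall, while H2-T23 shares 14.4% of its windows with other class I genes.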

How the data were processed

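Drop-seq libraries of the hippocampus of 22 mice were analysed from the gene by cell table of counts that the authors deposited. Per the submitters' processing notes, reads were demultiplexed with bcl2fastq 2.18.0.12 and aligned with STAR, given as 2.2, to mm10; the counting tool, annotation and whether molecular identifiers were collapsed are not given in the sources used here. Barcodes with at least 300 counts were clustered with scanpy 1.11.5 and leidenalg 0.10.2, and clusters were named from fixed markers. No doublet caller was run. Counts were summed per animal and class (at least 20 cells) and fitted with edgeR 4.0.16 (TMM, filterByExpr, robust quasi-likelihood F test, all 6 groups in 1 fit) in R 4.3.3, over the 12614 genes counted in all 22 animals; p-values were adjusted within a class at 0.05. DESeq2 1.42.0 was an alternative. The filter on low counts passes a gene through the group where it is high, so counts over tested members and listed genes are descriptions. Exact permutation tests used scipy 1.17.1. The fit and the permutation tests were tested on simulated data. For old rTg4510 against old WT, the fit called 32.3% of simulated log2 changes of 1 in microglia and 52% in astrocytes. It called 89.9% and 97% of changes of 2, and 0.048% and 0.155% of unchanged genes. Changes were simulated only in genes above a set level, so these shares do not cover low genes or other classes. The edgeR p-values set a group difference against the spread between animals, estimated over all 6 groups. The permutation p-values compare the difference with those of the same animals regrouped. The members and gene lists were chosen with earlier results of these data known. Named genes are all 7 members, the listed genes called in microglia or astrocytes, fixed direct partners, and the 5 genes most alike to B2m, H2-D1 and Psmb8. The values of 1 listed gene are not reported here.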

Additional observations from a re-analysis of the deposited data

Results flagged for a closer look

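Of 94 groups of 4 to 10 animals in which the lowest or highest value was tested against the others, 2 had an animal far from the rest, and chance alone flags about 1 in 20 such groups. H2-D1 in mural cells of young WT animal 1 stood at 819 CPM, while the other 3 young WT animals stood between 357 and 410.5 CPM. H2-D1 in excitatory neurons of old WT animal 4 stood at 182.5 CPM, while the other 4 old WT animals stood between 30.9 and 68.4 CPM.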

How the results depend on the processing

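The number of members called higher in old rTg4510 against old WT microglia was 4, and 3 or 4 under every alternative run, among them DESeq2, other scaling, each replicate left out, either microglia cluster alone and clustering without the pathway genes. Other counts moved. In astrocytes (old rTg4510 against WT, 3) the count was 1 without marker-carrying cells, with library size alone and without old WT animals 2 and 3, and 1 to 3 with single animals left out; against rTta (1) it was 2 in a fit of only those groups. In astrocytes of old against young rTg4510 (1) it was 0 with a minimum of 500 counts, without mixed cells, clustered without pathway genes, with library size alone and with only those groups, and 0 to 1 with single animals left out. In endothelial cells of old against young WT (0) it was 2 with DESeq2, 1 without mixed cells and 3 without a filter, and 0 to 1 with single animals left out. In microglia, P301L against WT (0) gave 1 in cluster 13 alone and without a filter, P301L against rTta (0) gave 1 without mixed cells and without a filter, and the old minus young effect (0) gave 1 with at least 10 cells, clustered without pathway genes and without a filter; each gave 0 to 1 with single animals left out. Against P301L (3) the count ran from 1 to 4 with single animals left out, and of old against young rTg4510 (2) it was 0 with only those groups and 0 to 3 with single animals left out. The rTta against WT count (1) was 0 with DESeq2, at least 10 cells, mixed cells out, clustered without pathway genes and in cluster 15 alone, and 0 to 1 with single animals left out. In oligodendrocytes, rTg4510 against WT (0) gave 1 with DESeq2, clustered without pathway genes, with only those groups and with the number range as a term, and 0 to 1 with single animals left out; old against young rTg4510 (2) gave 0 to 2, and precursors against rTta (1) 0 to 1. Among the differences of effects between classes, that of H2-K1 between microglia and oligodendrocytes was -0.65 with a pseudocount of 1 CPM in place of 0.17. With single animals left out it ran from -0.14 to 0.58, that of H2-K1 against astrocytes from -0.15 to 0.40, that of B2m against oligodendrocytes from -0.26 to 0.062 and that of H2-D1 from -0.59 to 0.047. Leaving out cells with foreign markers, the unnamed cluster, and old WT animals 2 and 3 together, was chosen after seeing the data. The causes of these changes were not tested. No paired analysis was possible because the labels give no replicate numbers and name no pairs. Microglia of 25 and 24 cells in old WT animals 2 and 3 limit the precision of low genes such as H2-T23.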
